A study of Mus musculus with 6 samples.

Results

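The miR-143 and miR-145a cluster is a pair of neighbouring miRNA genes that make 4 of the 1039 mature miRNAs in the table of liver small RNA reads. Its members were taken by name, as every entry that begins with mmu-miR-143- or mmu-miR-145a-, whichever arm of the hairpin it comes from. These were mmu-miR-143-3p, mmu-miR-143-5p, mmu-miR-145a-5p and mmu-miR-145a-3p, and all 4 passed the filter on low values (a mean above 1 RPM, the share of a library's miRNA reads scaled to 1000000, in at least one group). The libraries came from wild type ICR mice, an outbred stock, aged 30 weeks, each with a high-fat diet throughout and a further 8 weeks of gavage after the first 12 weeks. The J group received JTXK granule (Jiang Tang Xiao Ke, a Chinese herbal formula for diabetes) and the M group, the diabetic model, received sterile water, with 3 mice and 3 libraries in each. No library of mice on standard diet was analysed here, so the values speak only of the treated against the untreated diabetic liver.

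Both hairpins are known from smooth muscle cells and pericytes, the contractile cells of vessel walls, where they are made together and help to keep these cells in the contractile state. In liver the same miRNAs are made by vessel walls, fibroblasts and activated stellate cells, and far less by hepatocytes. miR-143 is also known from work on obese mice, in which a raised hepatic level lowered a sterol-binding protein (ORP8) that sustains insulin-stimulated AKT activation, and miR-145 is known to repress the insulin receptor substrate IRS1. In whole liver, fewer cells of a type and less miRNA per cell cannot be told apart.

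In the GENCODE annotation of GRCm38, Mir145a lies on chromosome 18 from 61647825 to 61647894 and Mir143 from 61649196 to 61649258, both on the minus strand. The hairpins are 1301 bases apart, and Mir143 ends 366 bases from the annotated long noncoding RNA Carmn (61649625 to 61665537, minus strand), which is upstream on that strand and is itself known from smooth muscle and heart. Neither hairpin overlaps another annotated gene.

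The cluster supplied 1.51% ± 0.224 of the miRNA reads in the J group and 2.07% ± 0.424 in the M group (SD, n = 3). An exact permutation test on the summed RPM gave p = 0.1, the smallest it can give. The nearest libraries were almost level, at 1.676% in J group replicate 1 and 1.679% in M group replicate 2, and M group replicate 1 was highest, at 2.52%. In each of the 6 libraries the order of levels was mmu-miR-143-3p, mmu-miR-145a-5p, mmu-miR-145a-3p and mmu-miR-143-5p, and no library of one miRNA reached the range of its neighbour in that order. The kit joins adapters to some sequences more readily than to others, so this is an order of reads and not necessarily of molecules. mmu-miR-143-3p ranked between place 9 and place 18 of all miRNAs in a library, and mmu-miR-143-5p between place 179 and place 198. Libraries held 2626353 to 4314134 miRNA reads, so that a single read was worth 0.232 to 0.381 RPM.

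Of the hairpin Mir145a, the 5p arm is the guide strand. mmu-miR-145a-5p had 4456, 3763 and 4589.7 RPM in J group replicates 1, 2 and 3, and 5427, 5300.0 and 6964 RPM in M group replicates 1, 2 and 3. All M libraries were above all J libraries, and the highest was M group replicate 3. The J mean was 4269.5 ± 444 RPM and the M mean 5897 ± 926 RPM (SD, n = 3), a log2 fold change (J minus M) of -0.46 with a standard error of 0.17. The 95% interval of this difference in limma ran from -0.86 to -0.06, with an unadjusted p of 0.0297 and an adjusted p of 0.71 (Benjamini-Hochberg).

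The passenger arm of the same hairpin was also lower in the J group. mmu-miR-145a-3p had 586, 584 and 772 RPM in the J libraries and 1020.4, 1016 and 895 RPM in the M libraries. The groups did not overlap, with J group replicate 3 closest to the M libraries. Its means were 648 ± 108 and 977 ± 71.2 RPM (SD, n = 3), and the log2 fold change was -0.60 with a standard error of 0.19 (95% interval -1.05 to -0.15). The limma fit gave it an unadjusted p of 0.0155 and an adjusted p of 0.64. Both miR-145a arms are on the study's list of lower miRNAs, which was drawn from these same libraries, so their passing here is not independent evidence.

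**Figure D1:**
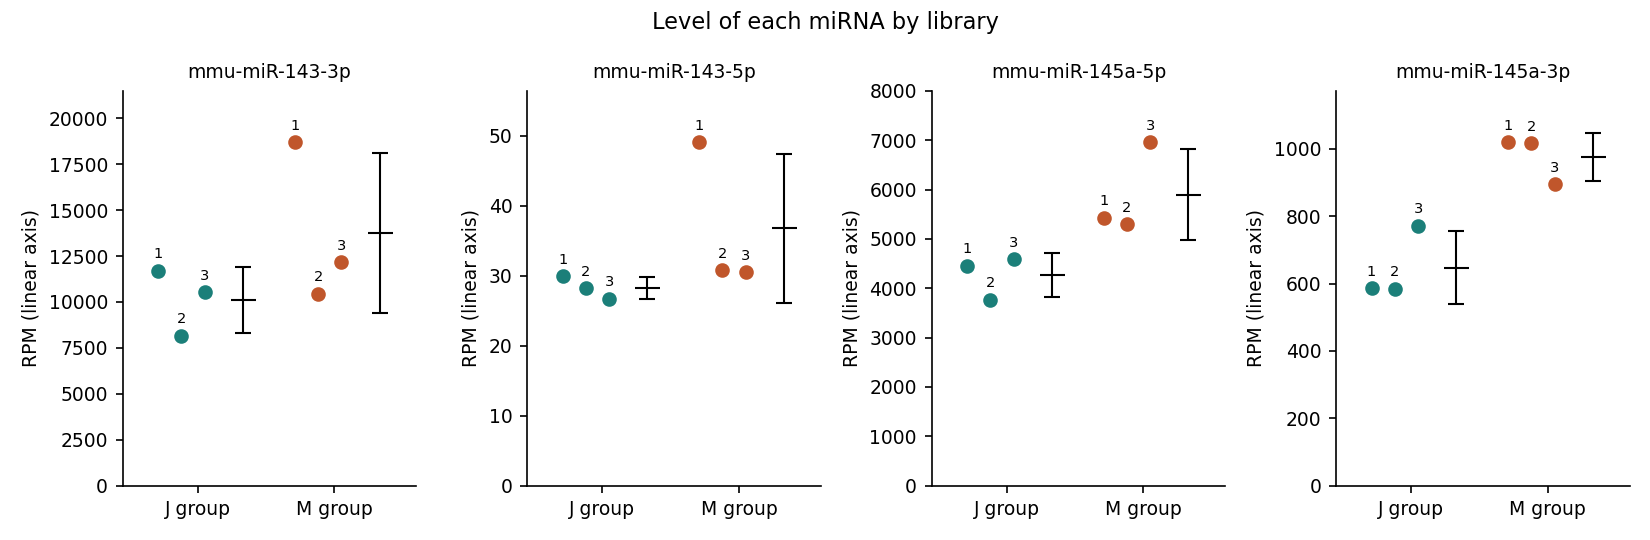
Level of each miRNA of the cluster in RPM (linear axes from 0) in the J group and the M group. Points are libraries numbered by replicate, and the bar beside them is the mean with its SD (n = 3). Both miR-145a arms show all M points above all J points, and both miR-143 arms have M group replicate 1 above every other library.

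In the hairpin Mir143 the 3p arm is the guide. mmu-miR-143-3p had 11689, 8162 and 10531 RPM in J group replicates 1 to 3 and 18708, 10443 and 12166 RPM in M group replicates 1 to 3. M group replicate 1 was far above the rest and the other 5 libraries overlapped, with M group replicate 2 below 2 of the J libraries. The log2 fold change of -0.41 (standard error 0.25, 95% interval -0.99 to 0.17, adjusted p = 0.71) did not pass the thresholds. Without M group replicate 1 it was -0.17, and the M mean of 13772 ± 4360.2 RPM (SD, n = 3) became 11304 RPM, beside 10128 ± 1798 RPM in the J group (SD, n = 3).

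mmu-miR-143-5p, the rare passenger arm, had 29.9, 28.2 and 26.7 RPM in the J libraries and 49.1, 30.8 and 30.5 RPM in the M libraries. The groups did not overlap, but the gap between the nearest libraries lay within counting error: the 95% Wilson interval of J group replicate 1 (129 reads) ran from 25.2 to 35.5 RPM and that of M group replicate 3 (131 reads) from 25.7 to 36.2 RPM. Such intervals cover counting error only, since PCR copies were not told apart. The log2 fold change was -0.33 (standard error 0.28, 95% interval -0.99 to 0.32, adjusted p = 0.71), and without M group replicate 1 it was -0.11.

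Of the 4 members, 2 passed the thresholds of the study's methods (absolute log2 fold change above 0.3 and unadjusted p under 0.05), both lower in the J group. Over all 548 tested miRNAs, 5.29% passed in either direction and 3.83% passed as lower in the J group. The groups did not overlap, with the J libraries lower, for 3 of the 4 members, against 9.31% of the tested miRNAs. All 4 fold changes were below 0, as were 58.9% of all tested. With 4 members of 1 transcript these are not 4 separate observations. By limma no tested miRNA had an adjusted p under 0.05, where 29 had an unadjusted p under 0.05. DESeq2 on the recovered reads gave 2 miRNAs an adjusted p under 0.05 and edgeR gave 0, none of them members.

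**Figure D2:**
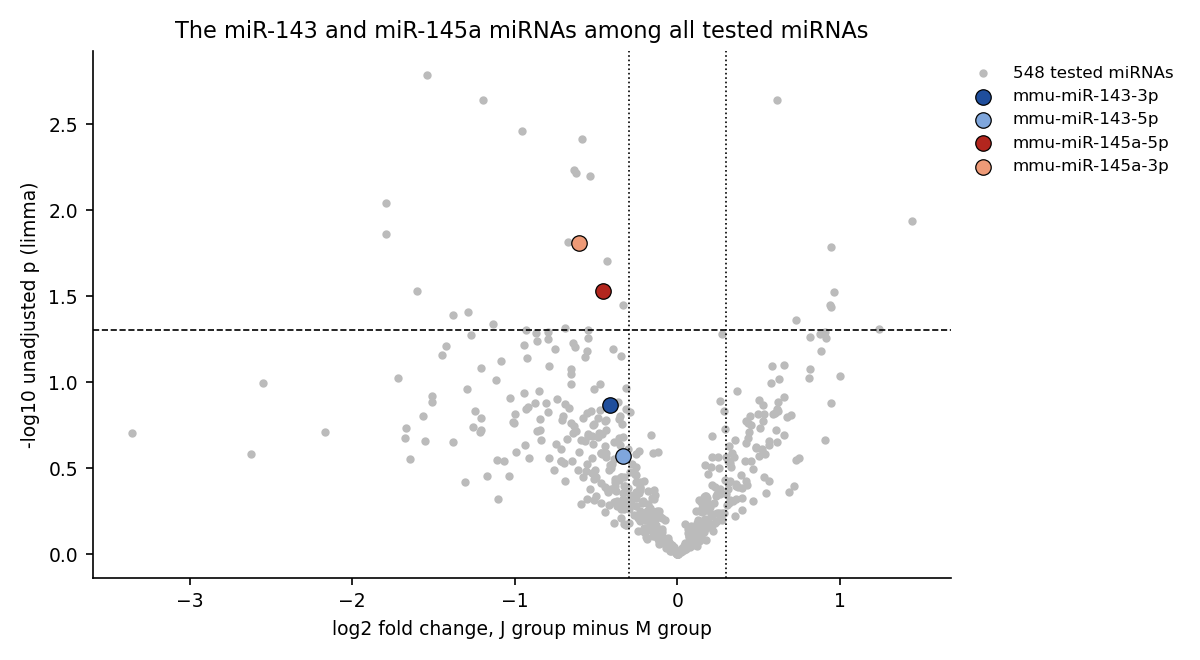
Log2 fold change (J group minus M group) against -log10 of the unadjusted p from limma, with 548 tested miRNAs in grey and the cluster coloured. Dashed and dotted lines mark the thresholds on the unadjusted p and on the log2 fold change. Both miR-145a arms lie above the dashed line on the left, at -0.46 and -0.60, and both miR-143 arms lie below it.

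RPM is a share of all miRNA reads, and the median of the tested miRNAs was itself -0.13 in the J group against the M group. Relative to that median the members stood at -0.28 (mmu-miR-143-3p), -0.20 (mmu-miR-143-5p), -0.33 (mmu-miR-145a-5p) and -0.47 (mmu-miR-145a-3p). Scaling by the median of ratios moved the overall median to -0.03 and quantile normalization moved it to 0.08. The split of miRNAs past the thresholds, 21 lower and 8 higher in RPM, became 14 lower and 18 higher by median of ratios, 11 lower and 20 higher by quantile normalization, and 27 lower and 18 higher in edgeR. All 4 members remained below 0 under both scalings. mmu-miR-145a-3p stayed past the thresholds after median-of-ratios scaling (-0.49) but not after quantile normalization (-0.29). The value of mmu-miR-145a-5p was -0.35 by median of ratios and -0.32 by quantile normalization, and it passed under neither.

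With each library left out in turn, mmu-miR-145a-3p passed in 5 of 6 fits and mmu-miR-145a-5p in 4 of 6. Without J group replicate 2 neither passed, although mmu-miR-145a-3p stood at -0.54, near its value over all libraries, and mmu-miR-145a-5p at -0.37. Without M group replicate 3, mmu-miR-145a-5p was at -0.33 and did not pass. Across 19 alternatives mmu-miR-145a-3p passed under 17, mmu-miR-145a-5p under 12, mmu-miR-143-3p under 1 and mmu-miR-143-5p under 0, and each of the 4 was lower in the J group in all 19.

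**Figure D3:**
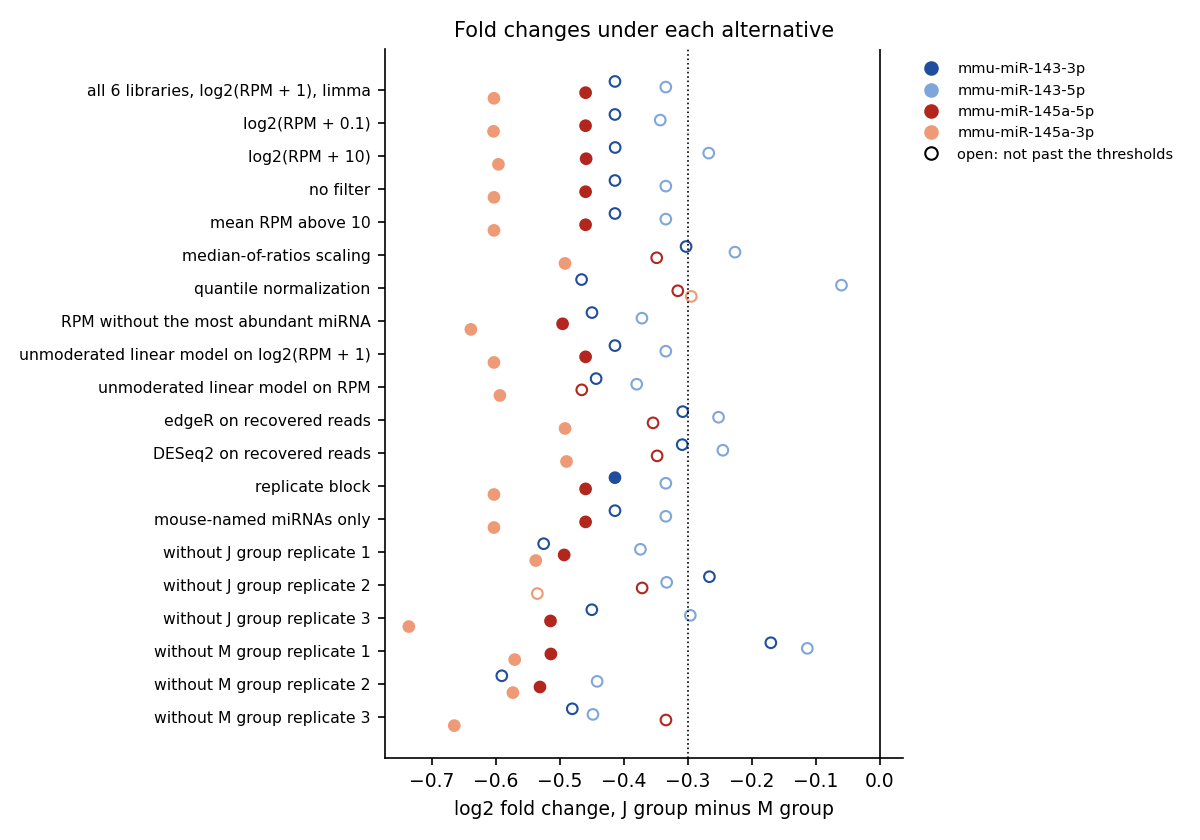
Log2 fold change (J group minus M group) of each miRNA of the cluster under limma on all 6 libraries (top) and under 19 alternatives. Filled points passed the thresholds, open points did not, and the dotted line is at -0.3. Every point lies left of 0, and the miR-143 points move closest to 0 without M group replicate 1 (-0.17 and -0.11) and, for mmu-miR-143-5p, under quantile normalization (-0.06).

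Ratios within a library compare the arms and the hairpins directly. The log2 ratios tested were differences of log2(RPM + 1), so that the added 1 RPM slightly lowers the ratio to the rare mmu-miR-143-5p, while the plain ratios and shares given are of RPM. In each library 99.7% of the Mir143 reads came from the 3p arm, and 83.9% to 88.6% of the Mir145a reads came from the 5p arm. The ratio of mmu-miR-145a-5p to mmu-miR-145a-3p was 7.60, 6.44 and 5.94 for J group replicates 1 to 3, against 5.32, 5.21 and 7.78 for M group replicates 1 to 3. These overlapped, and the difference in mean log2 ratio was 0.14 (exact two-sided permutation test, p = 0.6), which was 0.33 without M group replicate 3 and 0.042 without M group replicate 2. The log2 ratio of mmu-miR-143-3p to mmu-miR-143-5p was 8.42 ± 0.25 in the J group and 8.50 ± 0.12 in the M group (SD, n = 3, exact permutation p = 0.7).

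Between the hairpins, the ratio of mmu-miR-143-3p to mmu-miR-145a-5p was 2.62, 2.17 and 2.29 for J group replicates 1 to 3, against 3.45, 1.97 and 1.75 for M group replicates 1 to 3. M group replicate 1 had the highest ratio and the other M libraries the lowest. The mean log2 ratio differed by 0.05 between the groups (exact permutation p = 1). Adjusted over the 3 ratios compared, each p was 1, and with 3 libraries against 3 such a test cannot go below 0.1. Whether the hairpins differed in their response was not decided by a test of this size, although the miR-145a arms passed the thresholds and the miR-143 arms did not. Without M group replicate 1, every J library had a higher ratio than both remaining M libraries, a difference of 0.34 (exact permutation p = 0.1, the smallest possible there). That leaves out the only M library with a high ratio. With any other library left out instead, the difference was -0.15 to 0.11, and its direction depended on the library.

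**Figure D4:**
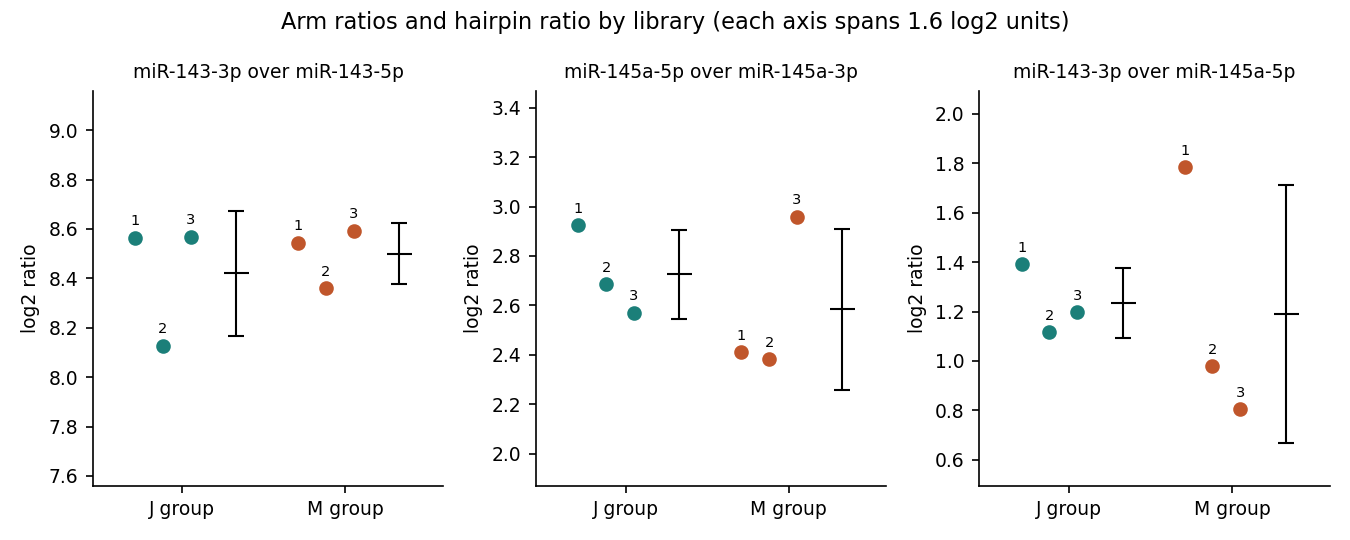
Log2 ratio of the arms of each hairpin and of the 2 guide strands in each library, on axes of equal span, with mean and SD (n = 3) beside the points. The J and M points overlap in all 3 panels, and in the panel of the guide strands M group replicate 1 lies above all libraries while the other M libraries lie below them.

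How closely the miRNAs of the cluster varied together across the 6 libraries depended on single libraries and on the groups. The miR-145a arms had Pearson's r = 0.74 (exact permutation p = 0.0903) and Spearman's rho = 0.83 (exact permutation p = 0.0583), and r was 0.95 without the 2 libraries farthest from the median, M group replicate 3 and J group replicate 2. Deviations from the group means showed no such relation (r = -0.016), so the pooled value holds the difference between the groups. The miR-143 arms had r = 0.89 (exact permutation p = 0.0486) and rho = 0.54 (exact permutation p = 0.297), and r fell to 0.43 without M group replicate 1 and J group replicate 2, so the relation rests on those libraries. As deviations from the group means, the miR-143 arms had r = 0.84, a value that still holds M group replicate 1. Without that library alone, their r over the remaining libraries was 0.46. For the guide strands, mmu-miR-143-3p and mmu-miR-145a-5p, r was 0.54 (exact permutation p = 0.243) and rho 0.71 (exact permutation p = 0.136), with r = 0.51 when the same 2 libraries were left out, 0.75 without M group replicate 1 alone and 0.14 as deviations from the group means. Over the 6 pairs the smallest adjusted values were 0.271 for r and 0.175 for rho.

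Other mouse miRNAs followed each guide strand more closely than the second hairpin did. Of 494 compared with mmu-miR-145a-5p by Pearson's r of log2(RPM + 1) over 6 libraries, the 5 most alike were mmu-miR-214-3p (0.95), then mmu-miR-212-3p (0.87), mmu-miR-292b-5p (0.86), mmu-miR-199a-5p (0.86) and finally mmu-miR-505-3p (0.85). mmu-miR-145a-3p came at place 23 and mmu-miR-143-3p at place 76. mmu-miR-214-3p and mmu-miR-199a-5p are miRNAs of stellate cells and fibroblasts. mmu-miR-292b-5p rests on 1 to 7 reads a library and mmu-miR-212-3p on 5 to 18. Within the groups, as deviations from the group means, r with mmu-miR-145a-5p was 0.98 for mmu-miR-214-3p and 0.44 for mmu-miR-199a-5p. Both were picked by their r over these same libraries, so these values are not separate support. mmu-miR-214-3p had only 59 to 143 reads a library, so counting error is a part of its spread. For mmu-miR-143-3p the 5 most alike were mmu-let-7i-5p (0.97), mmu-miR-106b-3p (0.96), mmu-miR-27a-5p (0.96), mmu-miR-301a-5p (0.96) and mmu-miR-130a-5p (0.96). mmu-miR-143-5p was at place 20 and mmu-miR-145a-5p at place 154. mmu-miR-301a-5p (0 to 22 reads) and mmu-miR-130a-5p (3 to 9 reads) were close to the limit of 3 reads. These are descriptions over 6 libraries that share the difference between the groups and M group replicate 1, which stood apart from the rest. The label of that library is MX1_3, where the other labels begin with MX2 or GJ2, and what the number means is not given.

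The mature sequences of the miRNAs whose pattern lay nearest to each guide strand, and of mmu-miR-199a-5p from the same noncoding RNA as mmu-miR-214-3p, show 3 different seeds (bases 2 to 8, in capitals, from RefSeq on GRCm38.p6). mmu-miR-214-3p is encoded at chr1:162223438-162223459 on the plus strand and mmu-let-7i-5p at chr10:122985698-122985719 on the minus strand. mmu-miR-199a-5p is encoded at chr1:162217844-162217866 on the plus strand and, with the same sequence, at chr9:21496537-21496559 on the minus strand.
mmu-miR-214-3p: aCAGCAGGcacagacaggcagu
mmu-miR-199a-5p: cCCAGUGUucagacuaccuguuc
mmu-let-7i-5p: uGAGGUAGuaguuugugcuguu

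The miRNAs of other cell types were read beside the cluster. Of 5 other stromal miRNAs tested (the miR-199 and miR-214 arms), 2 passed the thresholds, both lower in the J group, where 3.83% of all tested miRNAs did so. mmu-miR-199a-5p had 723, 638 and 663 RPM in the J libraries and 1078, 994 and 1050.4 RPM in the M libraries, with a log2 fold change of -0.63. mmu-miR-214-3p had 21.3, 19.3 and 21.0 RPM against 29.7, 28.7 and 33.3 RPM, and its log2 fold change was -0.55. The study's list of lower miRNAs, from these libraries, holds both, so their direction is not independent evidence. The median of these 5 was -0.55, beside -0.13 for all tested, and their summed level was 1430 to 1568 RPM in the J libraries and 1724 to 2246 RPM in the M libraries. The other 3 did not pass and their groups overlapped, with log2 fold changes of -0.72 for mmu-miR-199b-5p, -0.16 for mmu-miR-199b-3p and -0.38 for mmu-miR-214-5p. M group replicate 1 had the highest sum and the highest level of 4 of the 5. The part of stromal cells in the levels of the cluster was not tested.

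Of 7 immune cell miRNAs tested, 2 passed as lower in the J group (mmu-miR-342-3p, also on the study's list, and mmu-miR-146a-5p), against 3.83% of all tested, and the groups of the other 5 overlapped. The median of the 7 was -1.12, and their sum was 988 to 1370.0 RPM in the J libraries and 1768 to 6579 RPM in the M libraries, highest in M group replicate 1. The miR-200 family and mmu-miR-141-3p of bile duct epithelium had 0 of 5 past the thresholds and a median of -0.68, with sums of 950.1 to 2379 RPM in the J libraries and 1203 to 4298 RPM in the M libraries. Among them only mmu-miR-200c-3p, also on the study's list, had every J library lower (22.3 to 24.2 against 25.6 to 32.4 RPM), beside 9.31% of all tested miRNAs. Of the striated muscle miRNAs, 4 were found and 3 tested, with 0 past the thresholds and sums of 3.56 to 5.86 RPM in the J libraries and 3.72 to 23.2 RPM in the M libraries. mmu-miR-1a-3p, the leading miRNA of striated muscle, had 17.5 RPM in M group replicate 1 and 1.40 to 4.17 RPM in the other 5. The library with the most mmu-miR-143-3p thus had the highest sum for the immune, bile duct and striated muscle lists too, but not the highest level of every member. It was highest for 4 of 7 immune miRNAs (not for mmu-miR-223-3p, mmu-miR-155-5p and mmu-miR-342-3p), 4 of 5 of bile duct epithelium (not for mmu-miR-141-3p) and 2 of 4 of striated muscle (not for mmu-miR-499-5p and mmu-miR-206-3p). The part of these tissues in its level was not tested.

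The 5 hepatocyte miRNAs, mmu-miR-122-5p among them, had 0 past the thresholds, a median of -0.0042, and a sum of 391597 to 419287 RPM in the J libraries and 392287 to 450543 RPM in the M libraries. Among them 2 separated the groups, in opposite directions, beside 9.31% of all tested miRNAs with every J library lower and 4.2% with every J library higher. mmu-miR-122-5p, the dominant hepatocyte miRNA, had 208683 to 232872 RPM in the J libraries and 233362 to 262490.0 RPM in the M libraries (log2 fold change -0.12), and mmu-miR-192-5p had 105064 to 126905 RPM against 86806 to 101806 RPM (log2 fold change 0.28). mmu-miR-126a-3p of endothelium had a log2 fold change of 0.09, with 4166 to 6718 RPM in the J libraries and 4486 to 5579 RPM in the M libraries. For red blood cells (3 tested, 0 past the thresholds) the median was -0.12, with sums of 4362 to 6308 RPM in the J libraries and 2581 to 9886 RPM in the M libraries. M group replicate 3, the library with the most mmu-miR-145a-5p, had the highest sum and M group replicate 2 the lowest. The part of red blood cells in the level of mmu-miR-145a-5p was not tested.

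miR-143 belongs to a wider group of miRNAs tied to insulin resistance in the liver. Of the 10 others listed and tested (mmu-miR-103-3p, mmu-miR-107-3p, mmu-miR-802-5p, mmu-miR-34a-5p, the 3 miR-29 members, mmu-miR-26a-5p, mmu-miR-33-5p and mmu-miR-378a-3p), 0 passed the thresholds, beside 5.29% of all tested miRNAs, 9 were below 0 and the median was -0.15, beside -0.13 for all tested. mmu-miR-103-3p, which represses caveolin-1 in insulin signalling, had 1594 to 1790.1 RPM in the J libraries and 1783 to 2656 RPM in the M libraries (log2 fold change -0.32, not past the thresholds). mmu-miR-802-5p, known to be raised in obese liver, had 384 to 782 RPM against 464 to 869 RPM (log2 fold change -0.15).

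**Figure D5:**
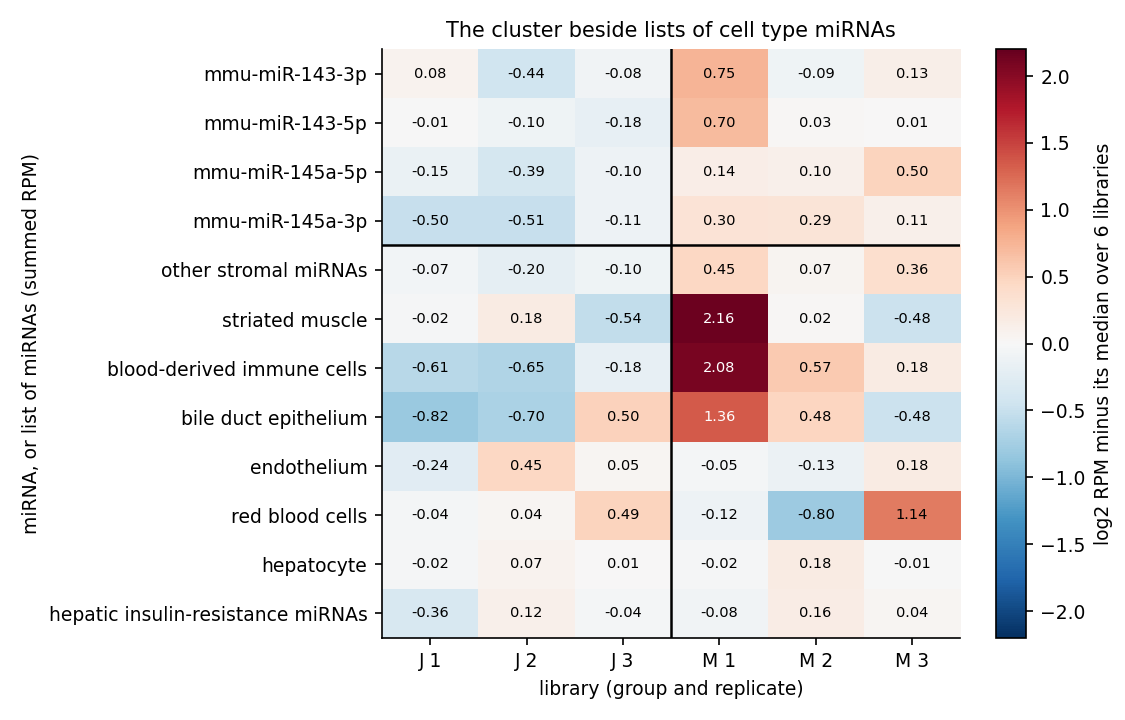
Log2 RPM minus its median over the 6 libraries, for each miRNA of the cluster (above the line) and for the summed RPM of each list of miRNAs (below), with J libraries left and M libraries right. In M group replicate 1 the miR-143 arms stand at 0.75 and 0.70, beside 2.16 for striated muscle, 2.08 for immune cells and 1.36 for bile duct epithelium, while the hepatocyte list stays within 0.18 of its median in all libraries.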

How the data were processed

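Small RNA libraries (NEBNext kit, Illumina HiSeq) were made from whole liver, 1 per mouse. The authors deposited RPM, made by filtering reads, matching the unique ones to Rfam and miRBase and expressing each known or predicted miRNA as a share of the library's miRNA reads, with the shares of a library summing to 1000000. The submitters' processing notes name the build mm9, and the aligner and the rule for reads that match several miRNAs are not given in the sources used here. Every value (100%) was a whole multiple of 1 read within 0.05 read, so whole reads were recovered. J and M libraries were set against each other in a two-sided limma trend fit (version 3.58.1, R 4.3.3) of log2(RPM + 1) for the 548 miRNAs whose mean passed 1 RPM in a group, with Benjamini-Hochberg adjustment over all 548. Fold changes are on that scale. edgeR 4.0.16 and DESeq2 1.42.0 were run on recovered reads. Ratios were tested by exact permutation (Python 3.11.15, numpy 2.4.6). The fits were run on simulated reads as a check of the code, not of the results. Named miRNAs are the members, the miRNAs of the lists, the 5 most alike to each guide strand and mmu-miR-145b. The members and lists were chosen with earlier results of these data known, and deviations from group means and r without a library were added after the values were seen. Pairing of replicate numbers was checked, as was the deposit of 1 library under 2 names, and no 2 libraries of the same group agreed within sampling noise.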

Additional observations from a re-analysis of the deposited data

How the results depend on the processing

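The alternatives were an added 0.1 or 10 RPM, no filter or a mean above 10 RPM, 3 other scalings, unmoderated linear models, edgeR, DESeq2, a replicate block, mouse names alone, and each library left out. Of 128 comparisons with an alternative, 110 kept their direction and their side of the thresholds (or a count within 1.5 times). The comparisons of ratios could change only in direction, since their exact tests cannot give p under 0.05 with so few libraries. All 6 reversals of direction were among the ratios. edgeR put 45 miRNAs past the thresholds, against 29 in limma, and the latter number was 21 to 46 with a library left out, 46 being without M group replicate 2. mmu-miR-145a-5p no longer passed under median-of-ratios scaling (-0.35), quantile normalization (-0.32), the linear model on RPM (-0.47), edgeR (-0.35) and DESeq2 (-0.35), and ranged from -0.53 to -0.33 with a library left out. mmu-miR-145a-3p no longer passed under quantile normalization (-0.29) and ranged from -0.74 to -0.54. The cause was not tested. Under quantile normalization the ratio of the miR-145a arms was -0.021 and that of the guide strands -0.15, both reversed, and that of the miR-143 arms moved from -0.079 to -0.41. With a library left out, the ratio of the miR-143 arms was -0.15 to 0.067, that of the miR-145a arms 0.042 to 0.33 and that of the guide strands -0.15 to 0.34. With the replicate block, which gave 27 miRNAs, mmu-miR-143-3p passed (-0.41). The replicate numbers are only names: deviations of same-numbered libraries correlated at 0.045, 0.058 and -0.0059, and not every library correlated best with its own number. Depth limits mmu-miR-143-5p, at 75 to 131 reads a library.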

Other observations

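mmu-miR-145b, the namesake of mmu-miR-145a from a separate gene on the same chromosome (GRCm38, 69022199 to 69022273), was rare, with 7 to 33 reads a library. It had 2.55, 4.19 and 4.63 RPM in the J libraries and 2.67, 5.57 and 7.68 RPM in the M libraries, which overlapped (log2 fold change -0.34, standard error 0.41, adjusted p = 0.80 from limma). That is 0.0491% to 0.111% of the level of mmu-miR-145a-5p. M group replicate 1 (label MX1_3), which held the most of both miR-143 arms, stood apart over all tested miRNAs, with correlations of 0.931 to 0.941 with the other libraries.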
